A study of Oryza sativa with 6 samples.

Results

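The rice array carried probes for 30 microRNA precursors named from osa-miR413 to osa-miR446, out of 169 microRNA precursors and 29923 gene names on the array. They were taken by name: every probe called osa-miR (osa for Oryza sativa) with a number in that range, whatever its letter suffix. Each precursor had 3 probes, named 5'seq, Mature and 3'seq, which gave 90 probes, each printed in 2 spots. The names covered miR413 to miR420, miR426, miR435, miR437, miR438, miR439a to miR439h, miR439j, miR440, miR441a to miR441c, miR442, miR443, miR445a, miR445d and miR446. The probe names place them on 12 chromosomes and do not say which bases of the precursor each probe reads. No sequence of these probes or microRNAs was used here.

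A plant microRNA is made from a longer transcript that folds into a hairpin. A Dicer-like enzyme cuts a short duplex out of the hairpin, and 1 strand of it, the mature microRNA, guides an Argonaute protein to matching messenger RNAs, which are cut or less translated. Families shared by most land plants are often abundant, whereas families found in few species are often weakly expressed and made from loci near transposons. The names miR413 to miR420 and miR426 were given to predictions made for Arabidopsis as well as rice, so a label of rice-lineage precursors covers only the later numbers well, and the files hold nothing that tests lineage. The RNA was amplified and labelled by in vitro transcription, so a spot need not read the mature microRNA, and a change at a probe is reported here only as a change of that probe.

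Roots of rice seedlings of cultivar TN-67, 6 days old, were given 5 µM copper or 25 µM cadmium, and control roots were given water. The labels do not give the length of the exposure or any other genotype. Each metal had 3 arrays, described as biological replicates, with metal-treated RNA in the red dye (Cy5) and water-control RNA in the green dye (Cy3) of the same array. The dyes were never swapped, so a dye effect on a probe and a metal effect against water cannot be told apart; a constant dye effect on a probe cancels only between the metals. In whole roots, fewer cells of a type and less RNA per cell cannot be told apart, and the tissue could not be checked against root markers because the array's locus numbers matched 0 entries of the reference table.

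The first copper and first cadmium arrays stood on slides of their own, and the other 4 arrays shared 1 slide. Over all tested probes, ratios on arrays of the same metal correlated between 0.807 and 0.964. No spot was saturated, and 74.1 to 82.1% of probes on an array were well above background in red and 73.8 to 79.8% in green. The median of 153 negative-control spots lay 41.5 to 105 units above local background in green and 3 to 5.5 units in red, and after the scanner's own correction both medians lay below 0. Ratios of dim probes therefore depend on the background correction, and the number of arrays limits precision throughout.

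Most of these precursors gave little signal. Of the 90 probes, 48 were not well above background in either dye on any array, and 27 (30.0%) met the rule for testing, which was a signal well above background on all 3 arrays of a metal in at least 1 dye. Over the whole array 78.7% of probes met that rule, and of the 420 probes for other microRNA precursors 146 did (34.8%). The other 15 probes were above background on some arrays only. Of the 27 tested probes, 11 were above background in both dyes on all 6 arrays. They were osa-miR414 3'seq and Mature, osa-miR416 3'seq, osa-miR439j 5'seq, osa-miR441a 3'seq, osa-miR441b 5'seq, both tested probes of osa-miR441c, both of osa-miR442, and osa-miR445a 5'seq.

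The 3 kinds of probe differed in how often they were seen at all. Among Mature probes, 27 of 30 were never above background, compared with 12 of 30 5'seq probes and 9 of 30 3'seq probes. The 3 Mature probes that were seen belonged to osa-miR414, osa-miR415 and osa-miR419, all with low numbers, and every one of the 21 Mature probes from miR435 onwards was below background throughout. Among the other microRNA precursors 79 of 140 Mature probes were never above background, compared with 53 of 140 5'seq and 57 of 140 3'seq probes. Tested there were 35 of 140 Mature (25.0%), 60 of 140 5'seq (42.9%) and 51 of 140 3'seq probes (36.4%). The tested members were 11 of 30 5'seq, 3 of 30 Mature and 13 of 30 3'seq probes. No test was made of these shares, since probes of 1 precursor share their source.

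By number, 6 of 8 precursors from miR413 to miR420 had a tested probe, as did 12 of 21 from miR435 to miR446, and the single precursor between them, miR426, had none. Precursors with no tested probe numbered 12, those with 1 numbered 11, those with 2 numbered 5, and 2 precursors, osa-miR414 and osa-miR419, had all 3. For osa-miR417, osa-miR420, osa-miR426 and osa-miR438 no probe was above background on any array. Untested for want of steady signal were also osa-miR437, osa-miR445d and 6 of the 9 miR439 precursors.

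**Figure D1:**
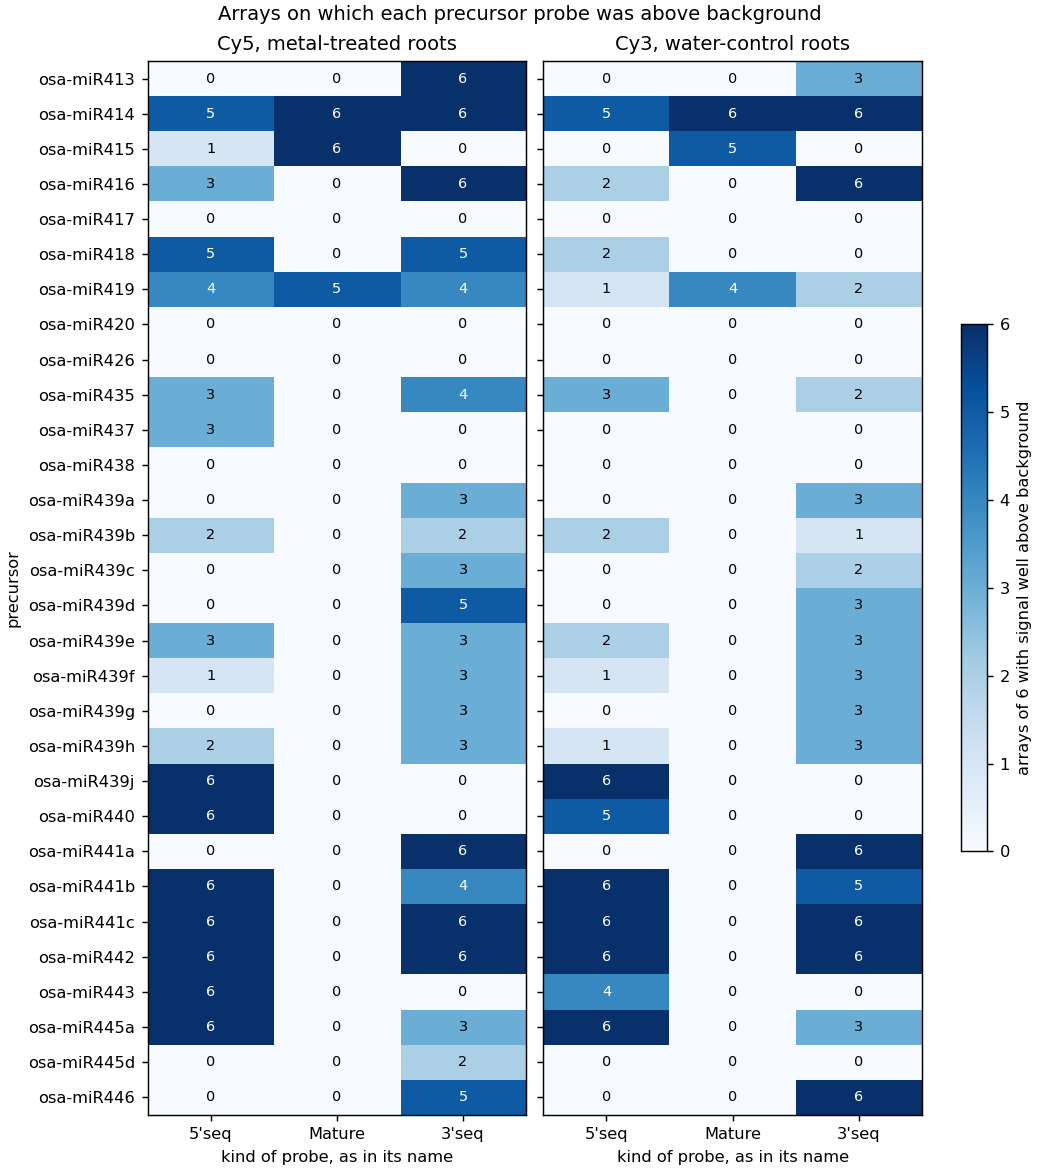
Number of the 6 arrays on which each probe was well above background, for the 30 precursors (rows) and 3 kinds of probe (columns), with metal-treated roots (Cy5) on the left and water-control roots (Cy3) on the right. The Mature column is 0 except for osa-miR414, osa-miR415 and osa-miR419, while many 5'seq and 3'seq probes reach 6.

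The miR439 family, with 9 precursors the largest group, was seen through a pattern of arrays that its members shared. In red, the 3'seq probes of 6 of the 9 were above background on the first copper array and the first and second cadmium arrays and on no other array. The 3'seq probe of osa-miR439b was above background on those cadmium arrays only, that of osa-miR439d on 5 arrays, and that of osa-miR439j on none. All 9 Mature probes of the family were below background throughout. Lettered members of a family carry near-identical mature sequences. How alike the stretches read by their 3'seq probes are is not known here. Whether signal at 1 member came from another was not tested. The red pattern includes 1 copper array and leaves out 1 cadmium array. In green, from water-control roots, the 3'seq probes of osa-miR439a and osa-miR439e to osa-miR439h were above background on the same arrays as in red. That of osa-miR439c was above background in green on the first copper and first cadmium arrays. The cause of the pattern was not tested.

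With copper, 5 of the 27 tested probes rose and 2 fell (limma, Benjamini-Hochberg adjusted p under 0.05 over all 33439 tested probes), and 20 did not pass the test. The 7 called probes are 25.9% of those tested, below the 42.6% called over the whole array, where 25.1% were higher and 17.5% lower. Of the 146 other microRNA probes tested, 54 were called (37.0%), 49 higher and 5 lower. The median log2 change of the 27 was 0.10, beside 0.01 over all tested probes and 0.18 over the other microRNA probes. The probes that rose were osa-miR416 3'seq, osa-miR419 3'seq and Mature, osa-miR439j 5'seq and osa-miR442 5'seq, and those that fell were osa-miR441b 3'seq and osa-miR446 3'seq. Every 1 of these 7 calls was lost when some single array was left out: 0 of the 27 passed in limma without the second copper array and 2 without the third, fits that called 27.8 and 24.1% of all tested probes. With the replicate number as a block, 11 passed, 8 higher and 3 lower, beside 51.5% of all tested probes. The 4 calls that the block added were at osa-miR414 3'seq and 5'seq, osa-miR440 5'seq and osa-miR441c 3'seq, the last of them lower. With a random effect of slide, 5 passed, beside 11882 of all 33439 tested probes, and the calls of osa-miR439j 5'seq and osa-miR441b 3'seq were lost.

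With cadmium, 9 of the 27 rose and 1 fell, and 17 did not pass. The 37.0% called lies near the 34.2% of the whole array, of which 20.4% of all tested probes were higher and 13.8% lower. It lies below the 53.4% of the other microRNA probes, of which 73 were higher and 5 lower. The median log2 change was 0.27, beside 0.00029 over all tested probes and 0.30 over the other microRNA probes, and 23 of the 27 lay above 0. Leaving out 1 array gave between 6 and 11 called probes, with 6 without the third copper array or without the second cadmium array, fits that called 28.0 and 20.0% of all tested probes. With the replicate number as a block, 19 passed, 18 higher and 1 lower, beside 44.0% of all tested probes. The 9 calls that the block added, all higher, were at osa-miR413 3'seq, osa-miR414 3'seq and 5'seq, osa-miR419 Mature, osa-miR435 3'seq, osa-miR439d 3'seq, osa-miR440 5'seq, osa-miR442 3'seq and osa-miR445a 5'seq, with adjusted p between 0.0126 and 0.0495. With a random effect of slide, 9 passed, beside 9141 of all 33439 tested probes. There osa-miR439j 5'seq, osa-miR441b 3'seq and osa-miR443 5'seq lost their calls, and osa-miR413 3'seq and osa-miR440 5'seq gained one.

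Between the metals, 2 of the 27 probes differed, both higher with cadmium and both from osa-miR418 (7.41%, against 11.0% of all tested probes, 4.09% higher with cadmium and 6.88% lower). The ratios of the metals did not overlap for 8 of the 27 probes, beside 33.2% of all tested probes, and cadmium was the higher in all 8. These were osa-miR418 5'seq and 3'seq, osa-miR435 3'seq, osa-miR441a 3'seq, osa-miR441b 5'seq, osa-miR441c 5'seq, osa-miR442 3'seq and osa-miR445a 5'seq. The direction of the probes without overlap over the whole array was not counted. On the slide that held both metals, with 2 arrays each, 5 probes passed, all higher with cadmium: those of osa-miR418, osa-miR441a 3'seq, osa-miR441b 5'seq and osa-miR446 3'seq. That fit called 25.4% of all tested probes, 3643 of them higher with cadmium and 4861 lower. The labels do not say whether the arrays of both metals share control RNA.

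**Figure D2:**
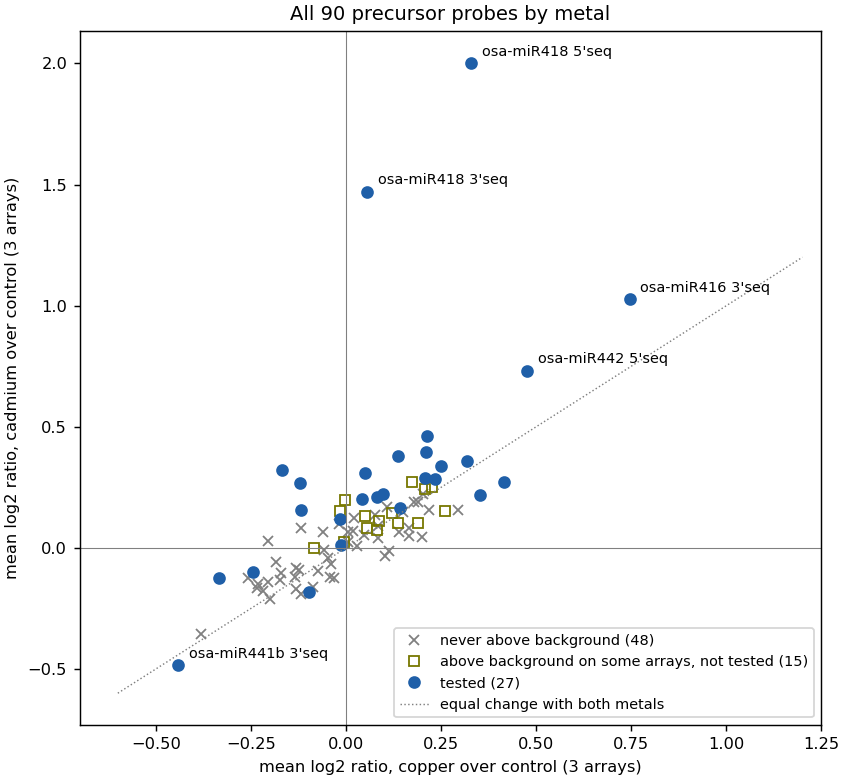
Mean log2 ratio of treated over control with copper (horizontal) and cadmium (vertical) for all 90 probes, each over up to 3 arrays per metal; filled circles are the 27 tested probes, squares the 15 seen on some arrays and crosses the 48 never above background. The probes of osa-miR418 stand apart at 0.33 and 2.00 and at 0.06 and 1.47, and the crosses fill the range -0.38 to 0.29 with copper and -0.35 to 0.22 with cadmium.

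The probes with no signal show how large a ratio can be without signal above background. Mean log2 ratios of the 48 probes that were never above background ran from -0.38 to 0.29 with copper and from -0.35 to 0.22 with cadmium. They had 1 sign on all 3 arrays of a metal for 33 probes with copper and for 27 with cadmium, and in limma with no filter on dim probes 5 of them passed with copper and 1 with cadmium. Of the 7 tested probes called with copper, 3 had a mean within this range, namely osa-miR419 3'seq, osa-miR439j 5'seq and osa-miR446 3'seq, and 4 lay outside it. All 10 called with cadmium lay outside it. The range holds for these ratios only, and ratios of the scanner's processed signals can lie far beyond it. On that scale osa-miR443 Mature, never above background, read -1.52, -1.81 and -1.34 with copper and 0.44, -1.45 and -2.23 with cadmium. No such range was taken for the scanner's processed signals.

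Among the precursors numbered miR413 to miR420, osa-miR418 on chromosome 2 gave the largest differences. Its 3'seq probe had log2 ratios of 0.15, -0.05 and 0.07 on the copper arrays and of 1.60, 1.65 and 1.16 on the cadmium arrays. The copper values lay around 0 and the cadmium values were all above 1, with no overlap. The mean was 0.06 ± 0.10 (SD, n = 3) with copper (limma adjusted p = 0.70) and 1.47 ± 0.27 (SD, n = 3) with cadmium (limma adjusted p = 4.7e-05). The difference of 1.42 on the log2 scale had a standard error of 0.15 and a limma adjusted p of 0.00142. The water control was not well above background on any array at this probe, so the size of the cadmium change was not measured. For a bound, the control on each array was set to at least the lowest green signal of any probe well above background. The probe's own green signal was already that high, so the result, 2.77-fold, is the mean ratio itself. It makes no allowance for the spread between arrays, and without the second cadmium array the log2 change was 1.38.

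The 5'seq probe of osa-miR418 had log2 ratios of 0.69, 0.15 and 0.15 with copper and 2.91, 1.96 and 1.14 with cadmium. The first array of each metal was the highest, and the lowest cadmium value still exceeded the highest copper value. The mean was 0.33 ± 0.31 (SD, n = 3) with copper (limma adjusted p = 0.38) and 2.00 ± 0.88 (SD, n = 3) with cadmium (limma adjusted p = 0.00162). Between the metals the difference was 1.67 (standard error 0.40, limma adjusted p = 0.037), and this call was lost without the second copper array or the third (adjusted p = 0.127 for each) or without the second cadmium array (adjusted p = 0.102). The control was above background on 1 of the 3 arrays of each metal. On the slide that held both metals the difference was 1.40 at each of the 2 probes, and on the scanner-corrected signals it was 2.90 at 3'seq and 3.19 at 5'seq.

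The signals as the scanner corrected them show where the ratios come from. At the 3'seq probe red read 146, 225 and 157 on the cadmium arrays and 26.1, 25.2 and 34.6 on the copper arrays, while green lay between 11.3 and 21.3 on all 6. At the 5'seq probe red read 475, 236 and 135 with cadmium and 65.7, 21.9 and 34.7 with copper, while green lay between 4.54 and 28.2. Red was high in cadmium-treated roots alone, and green was low on every array. On these scanner-corrected signals the cadmium changes were 3.80 at 3'seq and 4.58 at 5'seq, which are log2 ratios over a control near 0 and so depend on how the control's background was taken. The Mature probe of osa-miR418 was not above background in either dye on any array.

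**Figure D3:**
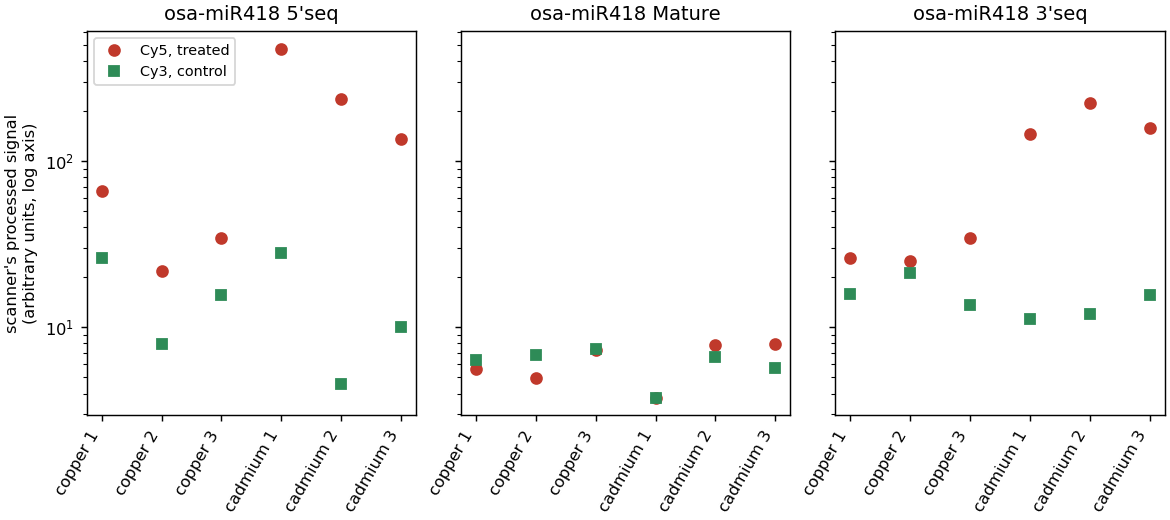
Scanner-corrected signal (arbitrary units, log axis) of the osa-miR418 probes on each of the 6 arrays, with circles for treated roots in Cy5 and squares for water-control roots in Cy3. Red exceeds 100 only on the cadmium arrays, at the 5'seq (135 to 475) and 3'seq (146 to 225) probes, and the Mature probe stays low in both dyes.

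The 3'seq probe of osa-miR416 (chromosome 4) was above background in both dyes on all 6 arrays. Its log2 ratios were 1.11, 0.51 and 0.62 with copper and 1.72, 0.79 and 0.58 with cadmium. The first array of each metal was again the highest, and the metals overlapped. The change was 0.75 ± 0.32 with copper (SD, n = 3, limma adjusted p = 0.0248) and 1.03 ± 0.61 with cadmium (SD, n = 3, limma adjusted p = 0.00874). Without the first cadmium array the cadmium change was 0.68, and on the slide with both metals the changes were 0.56 and 0.68. The copper call was lost without any 1 of the copper arrays. Its Mature probe was never above background, and its 5'seq probe was above background on some arrays only.

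For osa-miR419 (chromosome 12) all 3 probes were tested, and all lay above 0 on every array. The Mature probe had log2 ratios of 0.42, 0.42 and 0.21 with copper and 0.18, 0.30 and 0.17 with cadmium. It rose with copper by 0.35 ± 0.12 (SD, n = 3, limma adjusted p = 0.00786), and its cadmium value of 0.22 did not pass (limma adjusted p = 0.0601). The copper call was lost without the second copper array (adjusted p = 0.0593). The 3'seq probe had 0.30, 0.18 and 0.26 with copper and 0.37, 0.29 and 0.35 with cadmium, which made changes of 0.25 (limma adjusted p = 0.0199) and 0.34 (limma adjusted p = 0.00768). With copper its control was above background on 0 of 3 arrays and the treated roots on 1 of 3, so the size of that change was not measured. The 5'seq probe read 0.09, 0.02 and 0.13 with copper and 0.25, 0.37 and 0.01 with cadmium, and passed with neither metal.

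At the other low numbers no probe passed in the main fit, which had neither a replicate block nor a random effect of slide. The 3 probes of osa-miR414 (chromosome 11) had mean log2 ratios of 0.14 to 0.42 with copper and of 0.16 to 0.36 with cadmium. Its 3'seq probe read 0.17, 0.52 and 0.26 with copper and 0.28, 0.79 and 0.01 with cadmium. Its Mature probe read 0.27, 0.02 and 0.14 with copper and 0.15, 0.28 and 0.06 with cadmium, and its 5'seq probe 0.90, 0.30 and 0.05 with copper and 0.32 and 0.22 on the second and last cadmium arrays. All of these lay above 0, with arrays of a metal spread widely. At the 5'seq probe the first arrays differed from the others in level as well as in marked spots. Green read 10814 on the first copper array and between 77.1 and 152 on the 4 arrays of the shared slide, and no spot of the first cadmium array could be used, so its cadmium value rests on 2 arrays. The Mature probe of osa-miR415 read -0.52, 0.14 and 0.08 with copper and -0.65, 0.07 and 0.04 with cadmium. There the first arrays were the only ones below 0. With each array centred on its median log2 signal, green was 13.4-fold higher on them than on the shared slide. The 3'seq probe of osa-miR413 had means of 0.21 and 0.40. With cadmium it passed under the replicate block (limma adjusted p = 0.0191) and with a random effect of slide (limma adjusted p = 0.0359).

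**Figure D4:**
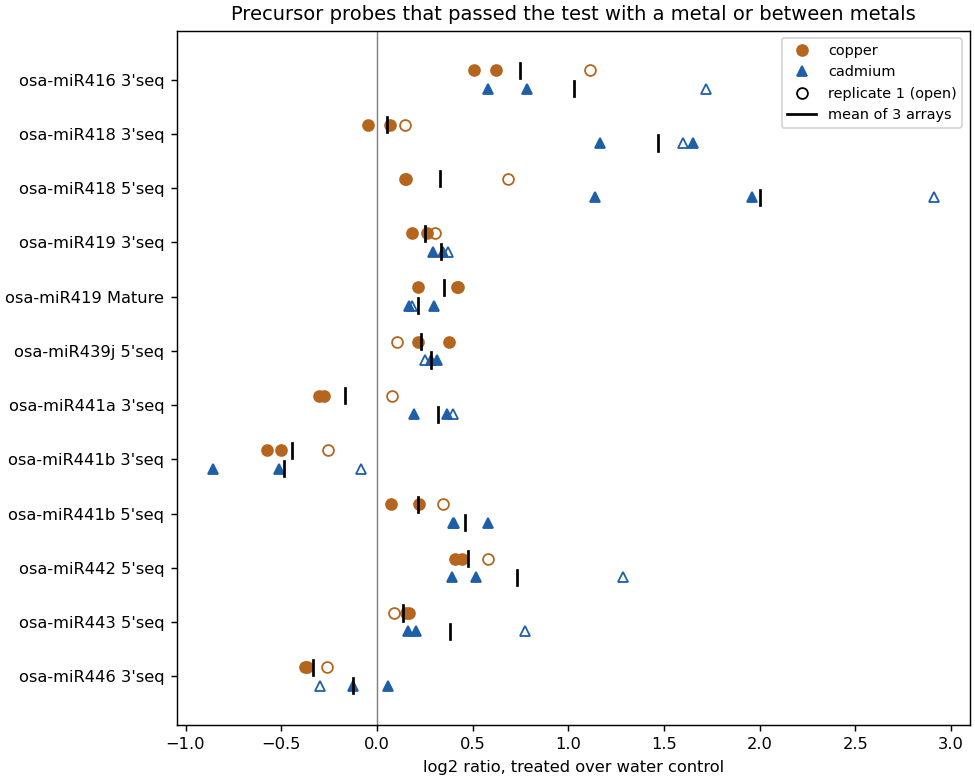
Log2 ratio of treated over water control on each array for the 12 probes that passed the test with a metal or between metals, with circles for copper, triangles for cadmium, open symbols for the first replicate and bars for the mean of 3 arrays. The cadmium values of osa-miR418 lie apart from its copper values. Open symbols lie furthest right with both metals for osa-miR416 3'seq, osa-miR418 5'seq, osa-miR419 3'seq, osa-miR441a 3'seq, osa-miR441b 3'seq and osa-miR442 5'seq.

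Among the precursors numbered miR435 to miR446, osa-miR442 (chromosome 4) had the largest rise. Its 5'seq probe had log2 ratios of 0.58, 0.41 and 0.44 with copper and 1.28, 0.52 and 0.39 with cadmium. All 6 lay above 0, the metals overlapped, and the first cadmium array was the highest. It rose by 0.48 ± 0.09 with copper (SD, n = 3, limma adjusted p = 0.0434) and by 0.73 ± 0.48 with cadmium (SD, n = 3, limma adjusted p = 0.0105). Without the first cadmium array the latter was 0.46 and still passed. Its 3'seq probe read -0.02, -0.24 and -0.10 with copper and 0.54, 0.25 and 0.01 with cadmium, and neither mean passed.

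The 3 precursors of miR441 gave 5 tested probes and no tested Mature probe. At osa-miR441b (chromosome 7) the 5'seq probe read 0.35, 0.07 and 0.22 with copper and 0.40, 0.58 and 0.40 with cadmium. It rose with cadmium by 0.46 ± 0.11 (SD, n = 3, limma adjusted p = 0.00459), while the copper mean of 0.21 did not pass (limma adjusted p = 0.069). The 3'seq probe of the same precursor read -0.26, -0.57 and -0.50 with copper and -0.08, -0.51 and -0.86 with cadmium, below 0 on every array. It fell by 0.44 on the log2 scale with copper (limma adjusted p = 0.0361) and by 0.48 with cadmium (limma adjusted p = 0.0316). The cadmium call was lost without the second cadmium array (adjusted p = 0.12), the third (adjusted p = 0.164, with a value of -0.30) or the third copper array (adjusted p = 0.0537). With a random effect of slide neither call held (copper -0.30, adjusted p = 0.16; cadmium -0.40, adjusted p = 0.083).

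At osa-miR441a (chromosome 3) the 3'seq probe read 0.08, -0.28 and -0.30 with copper and 0.40, 0.37 and 0.20 with cadmium. It rose with cadmium by 0.32 ± 0.11 (SD, n = 3, limma adjusted p = 0.0352), its copper mean was -0.17, and the difference of 0.49 did not pass (limma adjusted p = 0.0593). It passed with the replicate number as a block (adjusted p = 0.0301), with a random effect of slide (adjusted p = 0.00424) and on the slide that held both metals. That cadmium call was lost on leaving out any 1 cadmium array, the second copper array or the third, with arrays centred on their median rather than by loess (adjusted p = 0.154), and on the scanner's processed signals (adjusted p = 0.0953). The probes of osa-miR441c (chromosome 1) passed with neither metal in the main fit, and its 3'seq probe passed with copper under the replicate block. They read -0.15, -0.20 and -0.01 with copper and 0.12, 0.33 and 0.01 with cadmium at 5'seq, and -0.03, -0.43 and -0.28 and then 0.07, -0.11 and -0.26 at 3'seq. All copper values lay below 0. At the 3'seq probes of all 3 precursors green, centred on each array's median log2 signal, was lower on the first arrays than on the shared slide. It was lower by 6.62-fold for osa-miR441a, 10.8-fold for osa-miR441b and 7.70-fold for osa-miR441c.

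The remaining called probes had changes under 0.4 on the log2 scale. The 5'seq probe of osa-miR439j (chromosome 10) read 0.11, 0.38 and 0.21 with copper and 0.25, 0.31 and 0.28 with cadmium, giving rises of 0.23 (limma adjusted p = 0.0406) and 0.28 (limma adjusted p = 0.0244). The cadmium call was lost without the second cadmium array (adjusted p = 0.114), the third (adjusted p = 0.0966) or the third copper array (adjusted p = 0.0513). With a random effect of slide neither call held (copper adjusted p = 0.124, cadmium adjusted p = 0.107). The 5'seq probe of osa-miR443 (chromosome 3) read 0.09, 0.15 and 0.17 with copper and 0.77, 0.21 and 0.16 with cadmium. Its cadmium rise of 0.38 (limma adjusted p = 0.042) was 0.19 without the first array and did not pass (adjusted p = 0.109). That call was lost in 10 of 18 alternatives. Among them were leaving out any 1 cadmium array, the second copper array or the third, and a random effect of slide. The 3'seq probe of osa-miR446 (chromosome 6) read -0.26, -0.37 and -0.36 with copper and -0.30, 0.06 and -0.13 with cadmium. It fell with copper by 0.33 on the log2 scale (limma adjusted p = 0.0158), and its cadmium mean of -0.12 did not pass. On the scanner's processed signals these changes were larger: 0.42 with copper and 0.70 with cadmium at osa-miR439j, 1.11 with cadmium at osa-miR443 (limma adjusted p = 0.0639, not passing) and -0.71 with copper at osa-miR446. For osa-miR435, osa-miR439d, osa-miR439e, osa-miR440 and osa-miR445a the tested probes passed with neither metal in the main fit, with means between -0.02 and 0.31. Some gained calls under the replicate block or with a random effect of slide, as given above. At osa-miR445a the 5'seq probe read 0.06, 0.06 and 0.03 with copper and 0.65, 0.18 and 0.11 with cadmium, and the 3'seq probe 0.03, 0.08 and -0.15 with copper and 0.01, 0.12 and -0.10 with cadmium.

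Agreement between probes of 1 precursor could be read for 7 precursors, which gave 11 pairs of tested probes: 3 each for osa-miR414 and osa-miR419 and 1 each for osa-miR418, osa-miR441b, osa-miR441c, osa-miR442 and osa-miR445a. The mean ratios of a pair had the same sign in 8 of 11 pairs with copper (72.7%) and in 9 of 11 with cadmium (81.8%). On the scanner's processed signals, and in the authors' series table, the count was 6 of 11 with each metal. Pairs of the other microRNA precursors shared a sign in 44 of 63 with copper (69.8%) and 55 of 63 with cadmium (87.3%), and pairs of probes of 1 locus in 88.0 and 83.1% of 17073. The median absolute difference within a pair was 0.18 with copper and 0.20 with cadmium, beside 0.16 for the other microRNA pairs with each metal and 0.08 and 0.09 for loci. The 2 spots of a single member probe on 1 array differed by a median of 0.129 on the log2 scale.

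Where both probes of a member pair were called, the signs were the same in 1 of 1 pair with copper, osa-miR419, and in 1 of 2 with cadmium. The cadmium pair with the same sign was osa-miR418 and the pair with opposite signs osa-miR441b, whose 3'seq call did not hold with a random effect of slide. Opposite signs were found in 0 of 24 such pairs of other microRNA precursors with cadmium and in 0 of 9 with copper. The within-array difference of 5'seq minus 3'seq at osa-miR441b was 0.60, 0.64 and 0.72 with copper and 0.48, 1.09 and 1.26 with cadmium. It was above 0 on 6 of 6 arrays, with a mean of 0.80 ± 0.31 (SD, n = 6, two-sided exact permutation test by sign flips, p = 0.0313). For osa-miR442 the same difference was above 0 on 6 of 6 arrays, with a mean of 0.53 ± 0.18 (SD, n = 6, exact permutation p = 0.0313).

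That p is the smallest that 6 arrays can give when each is taken as independent, and flipping the 3 same-numbered pairs of arrays together could give none below 0.25. Adjusted over the 11 pairs by Benjamini-Hochberg it was 0.138 (exact permutation, 0 of 11 pairs passing). For osa-miR418 the 5'seq probe exceeded the 3'seq probe on 5 of 6 arrays, by 0.40 ± 0.48 (SD, n = 6, exact permutation p = 0.0625, adjusted 0.138). Its largest gap, 1.31, was on the first cadmium array. Among the 3 pairs of osa-miR419 the mean differences were between -0.15 and -0.01, smaller than their SDs for 2 of the 3 pairs.

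**Figure D5:**
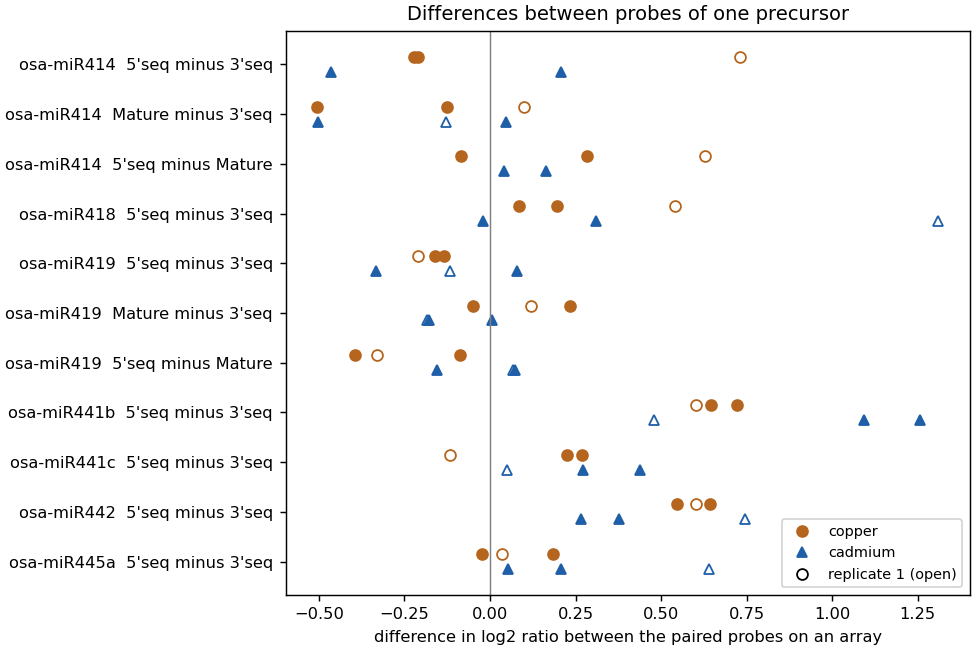
Difference in log2 ratio between probes of 1 precursor on each array, for the 11 pairs of tested probes, with circles for copper, triangles for cadmium and open symbols for the first replicate. For osa-miR441b and osa-miR442 every array lies above 0, and for the pairs of osa-miR414 the arrays fall on both sides.

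The control level itself varied between slides for these probes. For the folds here, log2 scanner-corrected green signals were first centred on each array's median over all tested probes. These centred signals differed at least 2-fold between the first arrays and the arrays of the shared slide for 18 of the 27 tested probes (66.7%). The share was 41.8% of all tested probes and 69.2% of the other microRNA probes. At least 4-fold differences were found for 9 (33.3%), 5 of them higher on the first arrays and 4 lower, beside 8.61% of all tested probes and 42.5% of the other microRNA probes. All these arrays carry water-control RNA in green, and slide, scan and replicate number cannot be told apart here. The control at osa-miR418 5'seq was 3.68-fold higher on the first arrays, and at osa-miR418 3'seq it was not above background on any array.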

How the data were processed

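The deposited scanner files hold spot intensity and local background medians in Cy5 and Cy3 from Feature Extraction 10.7.1.1, per the file headers, with the deposited log10 ratio of the processed signals and flag columns of other kinds. The authors' series table holds log2 ratios, treated over control, for 42475 probes (slope 1.00 on the scanner's ratio). Its column medians were -0.067, -0.161 and -0.191 with copper and -0.050, -0.145 and -0.080 with cadmium. Those of the scanner's processed ratio were -0.060, -0.161 and -0.191 with copper and -0.049, -0.145 and -0.080 with cadmium. The table thus holds nearly the same values, not centred on 0, and is not an alternative apart from the scanner's processed signals. Background was corrected with normexp (offset 50), each array was normalized by loess, outlier-marked spots (0.137 to 2.85%) were left out, and spots of a probe were averaged. All 33439 probes kept of 42477 entered 1 linear model per probe over the 6 arrays (limma 3.58.1, R 4.3.3), two-sided, with Benjamini-Hochberg adjustment at 0.05 and at least 2 values per metal. The script was tested on simulated data.

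The members and lists were chosen with earlier results of these data known. Values on every array are given for probes past the threshold (up to 12 a comparison) and for precursors with 2 or more tested probes. Copper and cadmium arrays with the same replicate number deviated together (r = 0.353, 0.241 and 0.265). The highest r of each copper array with a cadmium array of another number was -0.258, 0.205 and 0.164. Only the first arrays stood clearly apart, and slide and replicate number cannot be told apart. Alternatives varied background, centring, filter, block and arrays. One was added after the data were seen: normexp on the scanner's background-subtracted signals. Lists of biogenesis genes and MADS-box genes matched 0 names and were not tested.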

Additional observations from a re-analysis of the deposited data

Results flagged for a closer look

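The probes of osa-miR418 differed between the metals by a test of the difference itself. The change with cadmium exceeded that with copper by 1.42 on the log2 scale at 3'seq and by 1.67 at 5'seq (limma adjusted p = 0.00142 and 0.037). The control was not above background on any array at 3'seq and on 2 of 6 arrays at 5'seq, so the sizes depend on the background correction: on the scanner's processed signals they were 2.90 and 3.19. The 5'seq call was lost without the second copper array, the third, or the second cadmium array. Groups of 3 arrays are too small for a check of single outlying arrays.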

How the results depend on the processing

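Of 19 calls of single probes, 7 held under every alternative that could be run on them and 0 reversed: those with cadmium at osa-miR416 3'seq, osa-miR418 3'seq and 5'seq, osa-miR419 3'seq, osa-miR441b 5'seq and osa-miR442 5'seq, and that between the metals at osa-miR418 3'seq. Over the alternatives the cadmium change ran from 1.38 to 3.89 at osa-miR418 3'seq and from 1.55 to 4.67 at 5'seq, highest on the scanner's processed signals with median centring; neither probe is above background in both dyes on all 6 arrays, so that filter left both out. Called probes with copper, 7 in the report, numbered 12 on the scanner's processed signals (7 higher, 5 lower), 12 with these median centred (10 higher, 2 lower), 12 in the authors' series table, 12 of 90 with no filter, 4 with median centring in place of loess and 3 of the 11 above background in both dyes on all arrays. Over the whole array, in that order, these fits called 17609 and 14900 of 33439 probes, 17699 of 33437 and 14682 of 42477. Median centring in place of loess called 11134 of 33439, and the filter on both dyes 12127 of 27827. Called probes with cadmium, 10 in the report, numbered 5 of those 11, beside 9825 of 27827 over the whole array under that filter. Between the metals, 2 in the report, there were 0 of those 11, 1 with 1 probe per gene and 5 on the slide with both metals. Over the whole array these fits called 3091 of 27827, 2481 of 23337 and 8504 of 33439 probes. With the replicate number as a block 11 passed with copper, 19 with cadmium and 3 between the metals, and with a random effect of slide 5, 9 and 3. Over all 33439 tested probes the block called 17218, 14709 and 5577, and the random effect 11882, 9141 and 8438. Leaving out 1 array gave 0 to 7 with copper, 6 to 11 with cadmium and 1 to 3 between the metals. Over all 33439 tested probes it gave 8057 to 16574 with copper, 6694 to 12783 with cadmium and 1709 to 4295 between the metals. The cause of these shifts was not tested, except that the filters changed which probes were tested. On the scanner's processed signals the median of all probes moved to -0.14 with copper and -0.12 with cadmium, and the calls over the whole array turned from 8396 higher and 5837 lower to 6885 higher and 10724 lower with copper, and from 6814 and 4606 to 5631 and 8662 with cadmium. Pairs with the same sign, 8 of 11 with copper and 9 of 11 with cadmium, were 60 and 62 of 90 with no filter, 2 of 3 with each metal under the strict filter, 6 of 11 with each metal on the scanner's processed signals and in the authors' series table, and 8 to 9 on leaving out 1 array. Signal near background on some array limits all tested probes but osa-miR414 5'seq and the 11 above background in both dyes on all 6 arrays. That osa-miR414 probe was above background in both dyes on the 5 arrays where its spots could be used.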
